A study of Danio rerio with 8 samples.

Results

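The Hox-cluster miRNAs described here are the zebrafish miR-10 and miR-196 families, read from 8 of the 248 zebrafish miRNA probes of a microfluidic chip. Members were taken by probe name, as every zebrafish miR-10 or miR-196 probe with a single letter suffix and without the star that marks the opposite strand of a precursor. This gave dre-miR-10a, b, c and d and dre-miR-196a, b, c and d. The rule itself used no measured value. Total RNA from whole embryos at 72 hpf (hours post fertilization) was size-fractionated, tailed and stained with Cy5, and each sample was hybridized to an array of its own. The MC-RR group (4 arrays) came from embryos microinjected with microcystin-RR, a cyanobacterial toxin that inhibits protein phosphatases. The control group (4 arrays) came from embryos of the same age injected with saline solution. The labels do not say how many embryos were pooled for an array, and give no strain for either group. The methods name wild-type AB and Tg-(flk:GFP) fish, the latter for the vessel experiments, and do not say which gave the embryos for the arrays.

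MiRNAs are short RNAs that guide repression of messenger RNAs, mainly through pairing of the seed, bases 2 to 8 from the 5′ end, with the target. Most miR-10 and miR-196 genes sit inside the Hox clusters, whose transcription factors set positional identity along the body axis, and both families are known to repress Hox messenger RNAs. In zebrafish, miR-10 represses hoxb1a and hoxb3a in the hindbrain and spinal cord and also acts in the growth of embryonic vessels. MiR-196 directs cleavage of the Hoxb8 messenger RNA in mouse and takes part in patterning of the pharyngeal arches and pectoral fins in zebrafish.

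The target sequence listed in the scanner output for each member is shown because the families share so much sequence that one probe may also take up another member. They are written 5′ to 3′ with the seed in capitals. The 4 miR-10 sequences were
dre-miR-10a: uACCCUGUagauccgaauuugu
dre-miR-10b: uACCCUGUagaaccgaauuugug
dre-miR-10c: uACCCUGUagauccggauuugu
dre-miR-10d: uACCCUGUagaaccgaaugugug
and the 4 miR-196 sequences were
dre-miR-196a: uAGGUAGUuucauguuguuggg
dre-miR-196b: uAGGUAGUuucaaguuguuggg
dre-miR-196c: uAGGUAGUuugauguuguuggg
dre-miR-196d: uAGGUAGUuuuauguuguuggg

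Each family had 1 seed, ACCCUGU for miR-10 and AGGUAGU for miR-196, and every difference within a family lay outside it. Counted from 1 at the 5′ end, with the base of the first named miRNA first, miR-10a and miR-10b differed by U12A, and miR-10b was 1 base longer. A single change, A16G, separated miR-10a from miR-10c, and another, U19G, separated miR-10b from miR-10d, so that miR-10b and miR-10d were identical over their first 18 bases. In the other family, miR-196b differed from miR-196a by U13A, miR-196c by C11G and miR-196d by C11U. How far the probes tell these sequences apart was not tested, and each value below belongs to a probe.

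By name, all 8 members matched RefSeq genes of the GRCz12tu assembly, at 10 loci, and 9 of the 10 had a hox gene beside or around them. The miR-10a gene lay between hoxb5b and skap1, within the annotated span of hoxb1b, and the miR-10c gene between hoxb5a and hoxb4a. MiR-10b had 2 genes, one between hoxd4a and hoxd9a and the other between hoxc5a and hoxc4a. MiR-10d was the exception, between lnpk and mtx2, with no hox gene beside it. The 2 miR-196a genes lay between hoxc10a and hoxc9a and within the annotated span of hoxa9a. MiR-196b lay between hoxb10a and hoxb9a, miR-196c between hoxc11b and hoxc6b, and miR-196d between hoxa10b and hoxa9b. The probes for miR-10b and miR-196a therefore read the product of 2 genes each, which cannot be told apart on the chip.

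For each member, 10 spots on every array were read as mean pixel intensities in the scanner output that the authors deposited. Signals below are log2 intensities after background correction (normexp model, offset 50) and cyclic loess normalization between arrays, averaged over the 10 spots. A miRNA was called above blank on an array where its intensity exceeded the 95th percentile of that array's blank spots, and the test was limited to miRNAs above blank on at least 4 arrays, which left 187, all 8 members among them. Blank spots had medians of 58.1 to 179 on control arrays and 45.3 to 166 on MC-RR arrays, and 71 to 197 and 157 to 224 zebrafish miRNAs were above blank. The lowest count, 71, was on control replicate 4, where the blank percentile was 512. Of 10 tissue miRNAs looked up to check the whole-embryo label, 9 were above blank on at least 4 arrays, and of the 2 erythroid ones miR-451 was above blank on 7 arrays and miR-144 on 0. Since the RNA came from whole embryos, fewer cells of a type and less miRNA per cell cannot be told apart.

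The miR-10 family was read clearly in both groups. The 4 probes were above blank on all 8 arrays, at 2.92 to 75.8 times the blank median of the same array. The lowest ratio was that of miR-10c on control replicate 4, where its intensity of 524 was just above the blank percentile of 512. The miR-196 family was dim. Each of its 4 probes was above blank on 2 of the 4 control arrays, replicates 1 and 3. On control replicate 2 their ratios to the blank median were between 0.841 and 1.12, and on control replicate 4 between 0.685 and 0.854.

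**Figure D1:**
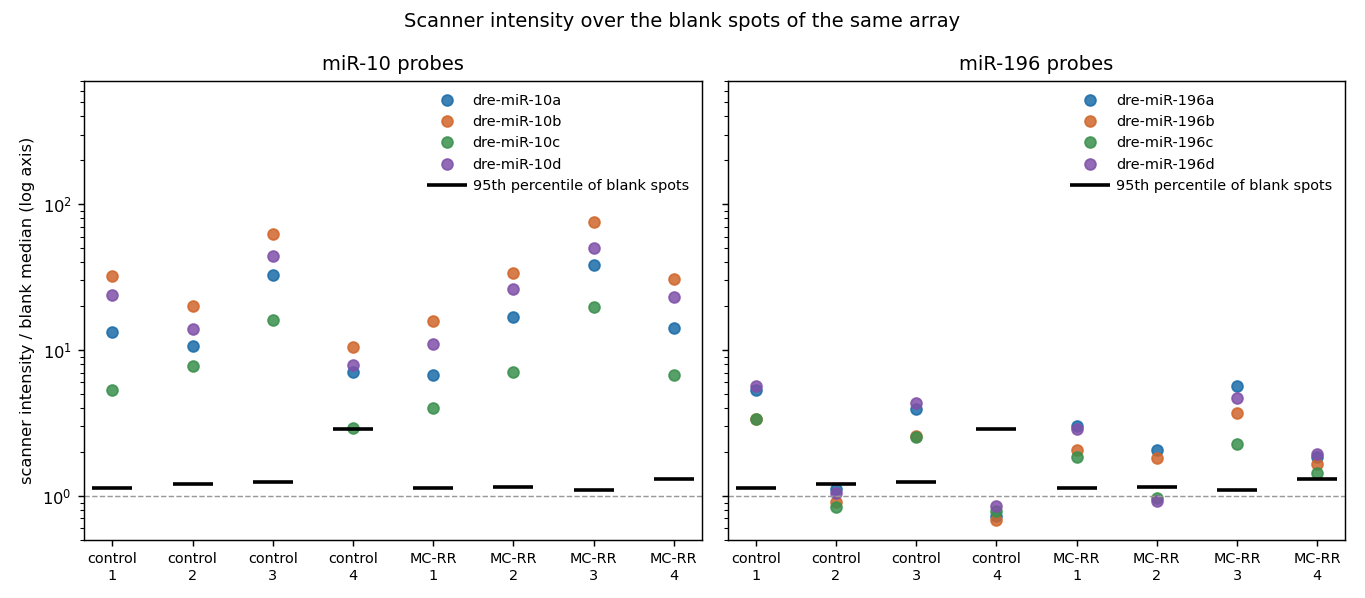
Scanner intensity of each probe divided by the median of the blank spots on the same array (log axis), for the 4 control and 4 MC-RR arrays, with miR-10 on the left and miR-196 on the right. Black bars are the 95th percentile of the blank spots, and the miR-10 points lie above it on every array while the miR-196 points fall below it on control replicates 2 and 4.

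On the MC-RR arrays the miR-196 probes were not alike. MiR-196a and miR-196b were above blank on 4 of 4, and miR-196c and miR-196d on 3 of 4. The missing array was MC-RR replicate 2, where the intensities of miR-196c and miR-196d were 47.0 and 44.5 against a blank median of 48.3, while those of miR-196a and miR-196b were 99.2 and 88.2. The spots of miR-196d varied most on that array among the miR-196 values, with a coefficient of variation of 23.4% over 10 spots, against a median of 7.99% for the family. MiR-196c and miR-196d are the members that differ from miR-196a at position 11 (C11G and C11U).

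The comparison of MC-RR with control asks whether exposure to the toxin altered the level of each Hox-cluster miRNA. None of the 8 members passed limma's test for a change, which does not show that their levels stayed the same. After Benjamini-Hochberg adjustment over the 187 miRNAs, 0 members and 0% of all tested were below 0.05. At an unadjusted p under 0.05 there were 0 members, against 16 of the 187, or 8.56%. The MC-RR and control arrays overlapped for all 8 members, and they did not overlap for 6 of the 187, or 3.21%. Of the members, 2 had a log2 fold change above 0 and 6 below it, against 87 and 100 of all tested. The members' split moved with the scaling, to 6 above and 2 below with median scaling and to 4 and 4 with quantile normalization or on the deposited normalized table. The median of the members was -0.06, the same as that of all tested to 2 decimals. Values for the members ran from -0.26 to 0.19, and those of all tested miRNAs from -1.53 to 1.47.

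MiR-10a, whose gene lies in a hoxb cluster, had log2 signals of 9.90, 9.996, 10.19 and 10.88 on the control arrays, in the order of replicates 1 to 4 kept throughout, and of 9.60, 10.25, 10.14 and 10.44 on the MC-RR arrays. The groups overlapped, with the highest array among the controls and the lowest among the MC-RR arrays. Its mean was 10.24 ± 0.44 (SD, n = 4) in controls and 10.11 ± 0.36 (SD, n = 4) with MC-RR. The estimate was -0.13 on the log2 scale (standard error 0.27), or a fold of 0.913 with a 95% interval of 0.594 to 1.40 (limma, adjusted p = 0.892; two-sided exact permutation test, p = 0.657). The smallest p that 4 arrays against 4 allow in the permutation test, which takes the arrays as unpaired, is 0.0286.

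MiR-10b, made from 2 genes in the hoxd and hoxc clusters, had the smallest standard error of the 8 members. Its log2 signals were 11.07, 11.03, 11.08 and 11.48 on the control arrays and 10.71, 11.18, 11.07 and 11.45 on the MC-RR arrays. In each group replicate 4 was the highest array, and MC-RR replicate 1 was the lowest of all 8. The means were 11.17 ± 0.21 and 11.10 ± 0.30 (SD, n = 4 each), and the fold was 0.958 with a 95% interval of 0.703 to 1.31 (limma, adjusted p = 0.916).

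MiR-10d, the member with no hox gene beside it, moved with miR-10b from array to array. It had log2 signals of 10.68, 10.46, 10.60 and 11.06 in controls and 10.24, 10.85, 10.51 and 11.08 with MC-RR, with a fold of 0.980 and a 95% interval of 0.686 to 1.40 (limma, adjusted p = 0.962). As for miR-10b, replicate 4 was highest in both groups and MC-RR replicate 1 lowest. The difference between the 2 probes within an array, miR-10b minus miR-10d, stayed between 0.33 and 0.57 on the log2 scale over all 8 arrays. MiR-10c, encoded in the other hoxb cluster, had log2 signals of 8.76, 9.49, 9.19 and 9.61 in controls and 8.90, 9.12, 9.30 and 9.49 with MC-RR. All 4 MC-RR values lay inside the range of the controls. Its fold was 0.958 with a 95% interval of 0.671 to 1.37 (limma, adjusted p = 0.916).

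**Figure D2:**
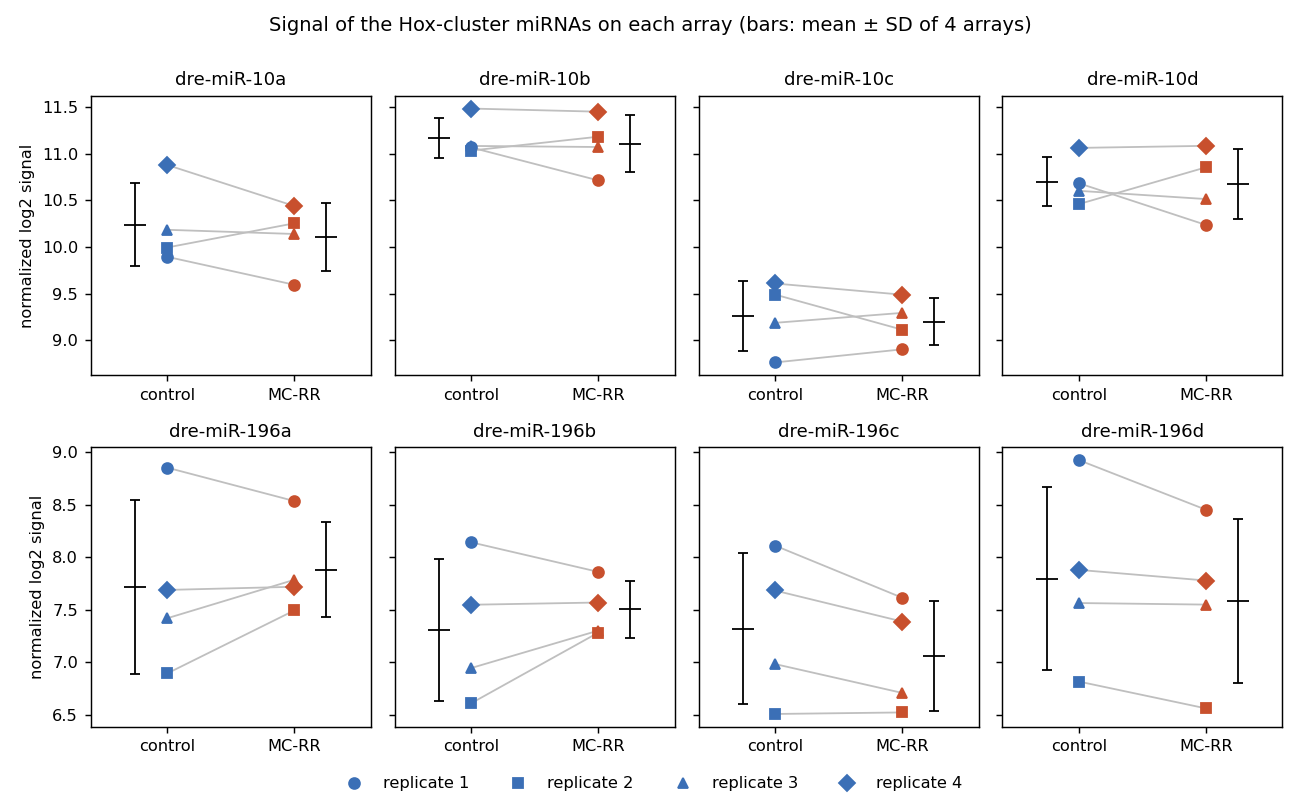
Normalized log2 signal of each member on the 4 control (blue) and 4 MC-RR (red) arrays, with grey lines joining arrays of the same replicate number and black bars giving the mean ± SD of 4 arrays. In every panel the groups overlap, and the replicate 1 arrays (circles) are the highest of their group in each miR-196 panel.

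The miR-196 values spread more widely among replicates than the miR-10 values. MiR-196a, made from genes in a hoxc and a hoxa cluster, had log2 signals of 8.85, 6.89, 7.42 and 7.69 in controls and 8.54, 7.50, 7.79 and 7.72 with MC-RR. The control arrays alone spanned the MC-RR range. Its means were 7.72 ± 0.83 and 7.88 ± 0.45 (SD, n = 4 each), a fold of 1.12 with a 95% interval of 0.576 to 2.20 (limma, adjusted p = 0.895). MiR-196b, encoded in a hoxb cluster, followed the same order of arrays at the top and bottom. Its log2 signals were 8.14, 6.61, 6.95 and 7.55 in controls and 7.86, 7.28, 7.30 and 7.57 with MC-RR, a fold of 1.14 with a 95% interval of 0.673 to 1.94 (limma, adjusted p = 0.892).

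For both, replicate 1 was highest and replicate 2 lowest in each group, and control replicates 2 and 4, where neither was above blank, are at the level of the blank spots. MiR-196c, encoded in the other hoxc cluster, had log2 signals of 8.11, 6.51, 6.98 and 7.68 in controls and 7.62, 6.52, 6.71 and 7.39 with MC-RR. The groups overlapped, with means of 7.32 ± 0.71 and 7.06 ± 0.53 (SD, n = 4 each). Its fold was 0.833 with a 95% interval of 0.443 to 1.57 (limma, adjusted p = 0.892; two-sided exact permutation test, p = 0.543).

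MiR-196d, encoded in a hoxa cluster, gave 8.93, 6.82, 7.57 and 7.88 in controls and 8.45, 6.56, 7.55 and 7.78 with MC-RR on the log2 scale. Its groups overlapped almost throughout, and its fold of 0.864 had the widest interval of the 8 members, 0.380 to 1.96 (limma, adjusted p = 0.895). The standard error of its log2 fold change was 0.52, and 88.2% of the tested miRNAs had a smaller one. For miR-10b the standard error was 0.19, and 36.9% of the tested miRNAs had a smaller one. The medians were 0.22 for miR-10, 0.41 for miR-196 and 0.23 for all tested miRNAs. With the replicate number entered as a block, as described below, these medians were 0.14, 0.15 and 0.15. The wider spread of miR-196 was thus mostly shared by arrays of the same number. Without that block, the 95% intervals of the 4 miR-10 folds stayed between 0.594 and 1.40, whereas those of miR-196 reached 0.380 and 2.20. These intervals hold for the background correction used here. With the blank median subtracted in its place, the estimates of miR-196a and miR-196b lay above the upper ends of their intervals, as given below.

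Replicate numbers were taken to pair the arrays, although the methods name no pairing. Same-numbered arrays of the 2 groups deviated from their group means together, with correlations of 0.58, 0.29, 0.53 and 0.78 for replicates 1 to 4 over the 187 miRNAs, and of 0.95, 0.78, 0.74 and 0.76 over the 8 members. These are correlations across miRNAs on normalized arrays, given as a description, and none is given for arrays of different numbers. The members are 2 families of similar sequence, so their values are not independent. On both replicate 1 arrays every miR-10 deviation was below 0 and every miR-196 deviation above it. The member values also include miR-196 signals not above blank on control replicates 2 and 4. When the replicate number entered limma as a block, the standard errors of the members fell to between 0.12 and 0.18. The number of members at an unadjusted p under 0.05 stayed at 0, against 30 of the 187, or 16%.

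The block narrowed the miR-196c and miR-196d intervals most. For miR-196c the difference of MC-RR minus control was -0.50, 0.01, -0.28 and -0.30 on the log2 scale in pairs 1 to 4. Its fold of 0.833 then had a 95% interval of 0.673 to 1.03 (limma with block, unadjusted p = 0.0791, adjusted p = 0.367). In limma without the block its unadjusted p was 0.525. A fit without both replicate 2 arrays was added after the data were seen, and it leaves out the only pair not below 0. On replicate 2 neither the control nor the MC-RR value of miR-196c was above blank. The control value of replicate 4, which was kept, was not above blank either. Without the replicate 2 arrays its blocked log2 fold change was -0.36, the unadjusted p was under 0.05 and the limma adjusted p was 0.158. In that fit 42 of the 187 miRNAs were under 0.05 unadjusted.

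MiR-196d was below its control in each of the 4 pairs, with differences of -0.47, -0.26, -0.01 and -0.10. Its fold of 0.864 then had a 95% interval of 0.701 to 1.06 (limma with block, adjusted p = 0.416). In pair 2 neither value of miR-196d was above blank, and in pair 4 the control value was not. MiR-196d was 1 of 8 members lower in every pair, where 39 of the 187 tested miRNAs, or 20.9%, were. For miR-196a and miR-196b, 3 of the 4 pairs were above 0. Their differences were -0.32, 0.60, 0.37 and 0.03 for miR-196a and -0.28, 0.67, 0.36 and 0.02 for miR-196b, so that both had the same order of pairs. In pairs 2 and 4, the largest difference among them, the control value of neither probe was above blank. The miR-10 pairs had mixed signs, between -0.45 and 0.39.

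**Figure D3:**
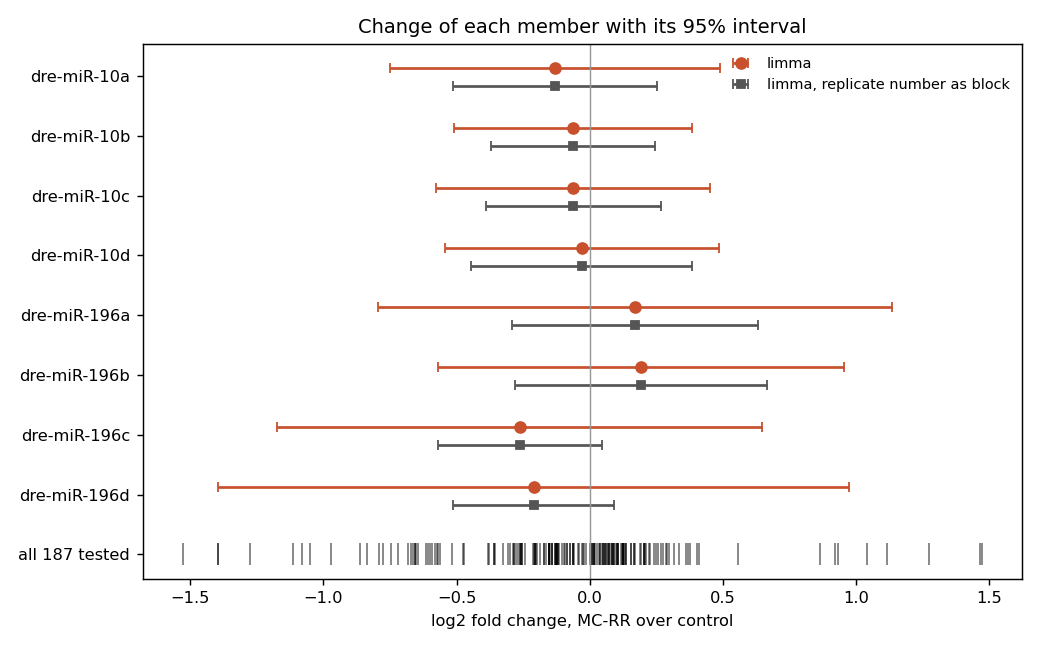
Change of each member with MC-RR on the log2 scale and its 95% interval, from limma without (red) and with (grey) a block for the replicate number, and below them 1 tick for each of the 187 tested miRNAs. All intervals of the members include 0, and they are widest for miR-196 without the block.

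Differences between probes were then taken within each array, which leaves out a shift that is equal for both probes on the log2 scale. MiR-196b minus miR-196c was 0.03, 0.10, -0.04 and -0.14 in the controls and 0.25, 0.76, 0.59 and 0.18 with MC-RR (means -0.01 ± 0.10 and 0.45 ± 0.28, SD, n = 4 each). All 4 MC-RR arrays were above all 4 control arrays, but the difference is one of blank-level signals on control replicates 2 and 4, where neither probe was above blank, and the largest value, on MC-RR replicate 2, is against a miR-196c signal not above blank. Where both probes were above blank it was 0.03 and -0.04 on control replicates 1 and 3 and 0.25, 0.59 and 0.18 on MC-RR replicates 1, 3 and 4. This pair was picked after its values were seen and was the only 1 of 28 pairs of members, or 3.57%, whose groups did not overlap. Of the 17391 pairs of tested miRNAs 1099, or 6.32%, did not overlap, so the share among the members was below that of all pairs, and no test is given.

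A second difference, miR-196a minus miR-196d, was -0.07, 0.08, -0.15 and -0.19 in controls and 0.08, 0.93, 0.24 and -0.06 with MC-RR. The groups overlapped. The largest value was on MC-RR replicate 2, where miR-196d was not above blank, and on control replicates 2 and 4 neither probe was. In sequence, these 2 miRNAs differ only by C11U. Whether the level of the miRNAs or their uptake by the probes differed on this array was not tested.

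**Figure D4:**
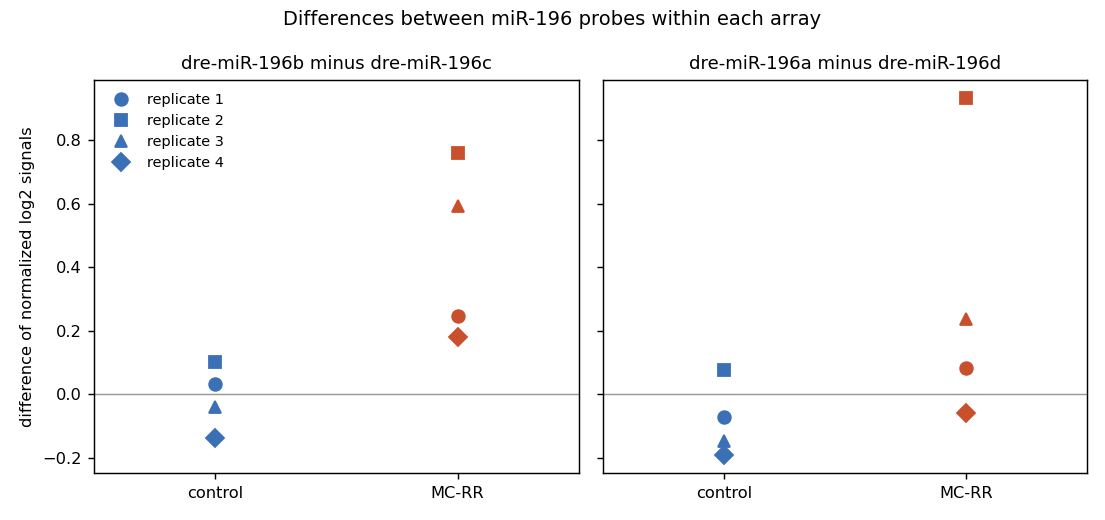
Difference of normalized log2 signals between 2 miR-196 probes on the same array, for the 4 control (blue) and 4 MC-RR (red) arrays, with 1 marker shape for each replicate number. On control replicates 2 and 4 no miR-196 probe was above blank, nor were miR-196c and miR-196d on MC-RR replicate 2; for miR-196b minus miR-196c the MC-RR points lie between 0.18 and 0.76, above the controls, and for miR-196a minus miR-196d the groups overlap.

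Signals of the members were also compared over the 8 arrays. Correlations are given as a description over 8 arrays, which share normalization and replicate pairs. Those with a miR-196 probe or the miR-196 mean, here and below, include control replicates 2 and 4, where no miR-196 probe was above blank. On MC-RR replicate 2, miR-196c and miR-196d were not above blank either. How much of these correlations comes from blank-level signal was not tested. Pearson's r was 0.50 to 0.96 among the 6 miR-10 pairs (median 0.81) and 0.81 to 0.95 among the 6 miR-196 pairs (median 0.87). Without both replicate 1 arrays these ranges were 0.36 to 0.96 and 0.55 to 0.91. The highest were miR-10b with miR-10d (r = 0.96) and miR-196a with miR-196b (r = 0.95), and each of these pairs differs by 1 base. Other pairs that differ by 1 base had lower values, from 0.75 for miR-10a with miR-10c to 0.93 for miR-196c with miR-196d. Among them, miR-196a with miR-196c (r = 0.81) was the lowest pair of its family. MiR-10a with miR-10d, which differ by 2 substitutions and in length, had r = 0.87. MiR-10c stood furthest from its family, with r = 0.50 to miR-10d, which has 3 substitutions to it.

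Between the families r ran from -0.75 to 0.17 over 16 pairs (median -0.18). That rested on the replicate 1 arrays, where miR-196 was highest and, with MC-RR, miR-10 lowest. The mean log2 signal of the 4 miR-196 probes was 8.51 and 8.12 on control and MC-RR replicate 1 and 6.71 to 7.70 on the other 6 arrays, whereas that of miR-10 was 10.10 and 9.86 there and 10.25 to 10.76 on the others. Without both replicate 1 arrays, r between the families was -0.02 to 0.89, which overlaps the ranges within them.

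Outside the families, the 3 tested miRNAs whose signal over the 8 arrays was most like the miR-10 mean, among 177, were miR-30b (Pearson's r = 0.94), miR-137 (0.89) and miR-133c (0.88). Most like the miR-196 mean were miR-16b (0.92), let-7c (0.91) and let-7a (0.91). Without the replicate 1 arrays these values were 0.96, 0.93 and 0.82 for miR-10 and 0.97, 0.80 and 0.74 for miR-196.

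The opposite strands of 2 miR-10 precursors were also on the chip, and are shown because they come from the same genes as miR-10a and miR-10d.
dre-miR-10a*: cAAAUUCGugucuuggggaaua
dre-miR-10d*: cAGAUUCGguuuuaggggagua
MiR-10a* was above blank on 3 arrays of each group, with a change of 0.12 on the log2 scale (standard error 0.14; limma, adjusted p = 0.892). MiR-10d*, above blank on 2 arrays of each group, had one of -0.07 (standard error 0.25; limma, adjusted p = 0.916). Neither strand of these precursors passed the test.

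MiR-99, miR-100 and let-7 are not members by the naming rule and have other seeds. MiR-100, miR-99 and let-7a are shown, with bases 2 to 8 in capitals, because each shares a run with a member in another frame.
dre-miR-100: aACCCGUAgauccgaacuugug
dre-miR-99: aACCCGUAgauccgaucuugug
dre-let-7a: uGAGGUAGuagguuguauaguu
MiR-10a shares the run GUAGAUCCGAA (11 bases) with miR-100, and miR-196a shares AGGUAGU with let-7a, where it starts at base 3 in place of base 2. MiR-100, which is 4 changes from a member, had a log2 fold change of -0.66 (standard error 0.25; limma, unadjusted p = 0.0318, adjusted p = 0.434; two-sided exact permutation test, p = 0.0857) and was lower in 4 of 4 pairs. For miR-99 it was -0.38 (standard error 0.23; limma, adjusted p = 0.774). Of 10 let-7 probes 7 were tested and 0 had an unadjusted p under 0.05 in limma, with log2 fold changes of -0.24 to -0.12. Whether their change differs from that of the members was not tested.

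On the authors' normalized table the ratio of the 4 MC-RR to the 4 control values, as arithmetic means, was 0.962, 1.01, 1.01 and 1.07 for miR-10a to miR-10d. It was 1.17, 1.26, 0.679 and 0.774 for miR-196a to miR-196d. For miR-196 the same 2 members lay above 1 and the same 2 below it as in the log2 fold changes, whereas miR-10b, miR-10c and miR-10d lay above 1 here and had log2 fold changes below 0. In that table miR-196d was 391, 45.0, 124 and 133 in the controls and 266, 16.3, 123 and 131 with MC-RR. Replicate 1 was the highest and replicate 2 the lowest in both groups there too.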

How the data were processed

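The deposited scanner output lists, for a 1-colour (Cy5) array, each spot's mean pixel intensity, with no background subtracted and nothing normalized. A further table deposited by the authors holds background-subtracted and LOWESS-normalized intensities on a linear scale, with medians of 56.3 to 103 on control and 51.7 to 99.3 on MC-RR arrays. Each column of it ranked probes as its own array's scanner output did (Spearman's rho 0.999 to 1.00; closest other array 0.870 to 0.986). The scanner intensities were background-corrected in limma 3.58.1 (R 4.3.3) by the normexp model with an offset of 50, fitted on every spot. Log2 values of a probe's 10 spots were averaged, and cyclic loess over the 248 probes for zebrafish miRNAs brought the arrays to one scale. The offset compresses fold changes of dim probes, and 4 arrays per group limit the precision. The filter used 206 blank spots per array.

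Groups were compared with lmFit and eBayes, Benjamini-Hochberg adjustment over 187 miRNAs, and two-sided exact permutation tests. The paper calls the 4 arrays of a group biological replicates, and the labels number them without naming the source of each. The p-values therefore set a difference against the spread between these samples only. Without the block, that spread includes differences between replicate numbers. The series description speaks of paired embryos and the methods name no pairing. Deviations of same-numbered arrays correlated above 0.1 in all 4 pairs. By that rule the numbers were taken to pair the arrays. The main fit and the permutation tests still treated the arrays as unpaired, and the block was an alternative. Arrays of different numbers were not compared in this way, so the rule cannot show that the numbers mark pairs. The fit was tested on simulated data. Named were the members, their star forms, miR-99, miR-100, let-7, probes within 4 changes of a member, and the 3 miRNAs most alike in pattern to each family. Members and lists were chosen with earlier results of these data known. Alternatives covered normalization, background correction, filter, spot summary, test, block, deposited table and arrays left out. Gene neighbours came from RefSeq (GRCz12tu). No positions are printed because the build behind the chip is not given in the sources used here.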

Additional observations from a re-analysis of the deposited data

Results flagged for a closer look

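The log2 signal of dre-miR-10b on control replicate 4, 11.48, stood apart from the other 3 control arrays, which lay between 11.03 and 11.08. The gap to the nearest of them was 0.890 of the range of the 4 arrays, past Dixon's 95% critical value. This was 1 of 16 sets of 4 arrays examined (8 members in 2 groups), and chance alone puts about 1 in 20 past it. Control replicate 4 was the array with the highest blank median, and the 10 spots of each miR-10 probe varied more there (coefficients of variation 19.8% to 21.9%) than on the other arrays (3.71% to 13.6%). This was not limited to miR-10. Over all zebrafish miRNA probes the median was 13.6% on control replicate 4 and 8.37% over all 8 arrays. The scanner intensity of miR-10b on control replicate 4, 1896, was the lowest of the 4 controls (2474, 2523 and 3617 on replicates 1 to 3). Its signal there was the highest only after background correction and normalization. After these steps the MC-RR array of the same number was also the highest of its group for miR-10b, at 11.45. Without control replicate 4 the log2 fold change of miR-10b was 0.043 in place of -0.06.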

How the results depend on the processing

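Across 24 alternatives (21 listed at the outset and 3 added after seeing the data), 188 log2 fold changes of members were computed. Of these, 157 kept their direction and side of the unadjusted threshold, 30 changed sign without passing it, and 1 passed it. That 1 was miR-196c at -0.36, without both replicate 2 arrays and with the replicate block, where the number of members at the unadjusted threshold was 1. The replicate block alone changed no call: 0 members passed with it, and 0 in each of the other alternatives. At the adjusted threshold 0 passed in all 24. Leaving out 1 array at a time gave -0.25 to 0.082 for miR-10a, -0.18 to 0.068 for miR-10b, -0.23 to 0.053 for miR-10c, -0.17 to 0.12 for miR-10d, -0.10 to 0.55 for miR-196a, -0.041 to 0.47 for miR-196b, -0.53 to 0.00013 for miR-196c and -0.54 to 0.16 for miR-196d. Signs also changed with quantile normalization (miR-10c 0.034, miR-10d 0.085), median scaling (miR-10a 0.031, miR-10b 0.20, miR-10c 0.037, miR-10d 0.18), the blank median subtracted (miR-196d 0.052) and the deposited table with or without the block (miR-10c 0.061, miR-10d 0.054). They did so too without both replicate 1 arrays (miR-10b 0.034, miR-10d 0.11) and without both replicate 2 arrays with the block (miR-10c 0.042). The cause was not tested. Over all tested miRNAs the median was -0.06 as reported, 0.05 after quantile normalization, 0.10 after median scaling, -0.11 without normalization and 0.06 on the deposited table. Subtracting the blank median, with a floor of 1, gave miR-196a 1.37 and miR-196b 1.82, neither past the threshold. Both exceeded the upper ends of their 95% intervals in the main fit, 1.13 and 0.96 on the log2 scale. Requiring detection on all 8 arrays left 66 miRNAs and no miR-196 member. Signal over background limits miR-196 on control replicates 2 and 4 and, for miR-196c and miR-196d, MC-RR replicate 2.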

Other observations

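Among the customer-defined probes, which entered no comparison, mmu-miR-99a (the mouse sequence) was within 4 changes of a member. Its mean scanner intensity was 498, 1059, 1310 and 382 in the controls and 483, 489, 882 and 532 with MC-RR, by replicate number and without normalization.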
